A study of Oryza sativa with 6 samples.

Results

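The genes described here are those of ethylene and jasmonate in developing rice (Oryza sativa) grains. Of 91080 features in the deposited table, 52 were taken because their description holds a word for ethylene, its precursor 1-aminocyclopropane carboxylate, TIFY proteins, lipoxygenases, allene oxide enzymes, 12-oxophytodienoate reductases or dehydration-responsive element-binding factors (DREB). A description was given for 3813 features, so family members without one are not among them. In 1 of the 52, the sterol enzyme SMT2-1, the word ethylene stands inside methylene. It has no known part in ethylene or jasmonate pathways and is described apart. Grains at the filling stage, labelled 15 DAF, came from a pair of near-isogenic rice lines grown in a paddy field, bred to be alike except around a chosen locus. The mutant group is NIL-gaf1 (3 libraries, sample titles with F1287gif2) and the wild-type group is NIL-GAF1 (3 libraries, titles with F1288GIF2). The labels do not say what differs between the gaf1 and GAF1 alleles, and whether the 3 libraries of each stem from different plants is not stated. The p-values therefore rest on the spread between these libraries, which may be technical.

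Ethylene is a gas made from S-adenosylmethionine by ACC synthase and then ACC oxidase. It binds membrane receptors that hold the pathway off while they are empty. EIN2 passes the signal on from the receptors, and ethylene-responsive factors act at the end of the chain. DREB factors belong to the same AP2/ERF superfamily but are best known for responses to cold and drought. Jasmonate synthesis starts with a lipoxygenase, passes through allene oxide synthase and cyclase, and continues with reduction of 12-oxophytodienoate. Amino acid conjugates of jasmonate bind the receptor COI1, which removes TIFY repressors (JAZ proteins) from transcription factors such as MYC2. In cereals ethylene is known for a part in grain filling and endosperm cell death, and jasmonate for defence and, in rice, spikelet development.

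The libraries held 17236796 to 25402680 counts. Levels between lines are given in normalized CPM, which are library-scaled counts (CPM) after TMM scaling, a method that takes the typical gene as unchanged. The scaling matters here because 18 features described as glutelins, prolamins, seed allergens or 19 kDa globulin (1 of them without counts) took 0.403%, 7.11% and 21.3% of the counts in mutant libraries 1 to 3, against 36% to 42.3% in the wild-type ones. The 8 embryo and aleurone features, all with counts, took 0.055% to 0.168% in the mutant and 0.194% to 0.25% in wild type. The 4 chlorophyll a-b binding features took 0.0713% to 0.22% in the mutant and 0.0475% to 0.0703% in wild type. In summed normalized CPM these 4 measured 1169, 660 and 617 in the mutant, against 984, 758 and 764 in wild type, so the lines overlapped. The part of these differences in the results below was not tested. In bulk samples, fewer cells of a type and less RNA per cell cannot be told apart. A count of 0 allows up to 0.0753 to 0.102 normalized CPM in mutant and 0.205 to 0.244 in wild-type libraries (3 counts per library, counting error only).

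Of the 52 genes, 3 (DREB1F, OPR13 and TIFY8) had no counts in any library, and 34 had enough counts to be tested. The 18 that were not tested had at most 93 counts over all 6 libraries. Among the 34, 8 rose and 4 fell in the mutant with Benjamini-Hochberg adjusted p under 0.05 in the quasi-likelihood test of edgeR, and 22 did not pass. That is 35.3% of the tested members, beside 31.2% of all 22937 features tested (15.8% higher and 15.4% lower). In this fit the share of calls was thus near that of the table as a whole. With DESeq2 size factors in edgeR, 12 of 34 members were called, beside 7106 of 22937 features. The DESeq2 Wald test called 17 of 34, beside 7925 of 22933. With a mean of at least 5 CPM required, edgeR called 13 of 23, beside 5543 of 14101. The lines did not overlap in normalized CPM for 22 of the 34, beside 49% of all tested features. Calls of at least 2-fold numbered 7 of the 34 (20.6%), beside 18.8% of all tested features. The median log2 fold change was 0.37 for the tested members and 0.06 for all tested features. With total-count scaling these medians were 1.59 and 1.27, and 26 members were called higher and 2 lower (28 in all), beside 71.9% and 3.76% of all tested features (75.6% in all). Leaving storage and seed allergen features out of the totals (21 features here, with those described as alpha-amylase/trypsin inhibitors included) allowed 36 members to be tested. Of these 17 were higher and 3 lower, beside 43.9% and 6.96% of all tested features (50.9% in all). Among the 34 members tested with TMM, 17 were higher and 2 lower. At an adjusted p under 0.01, 5 members were higher and 2 lower, beside 7% and 7.67% (14.7% in all). All directions below are relative to the typical gene unless another scaling is named, and the 3 values of a line are listed in the order of its libraries.

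**Figure D1:**
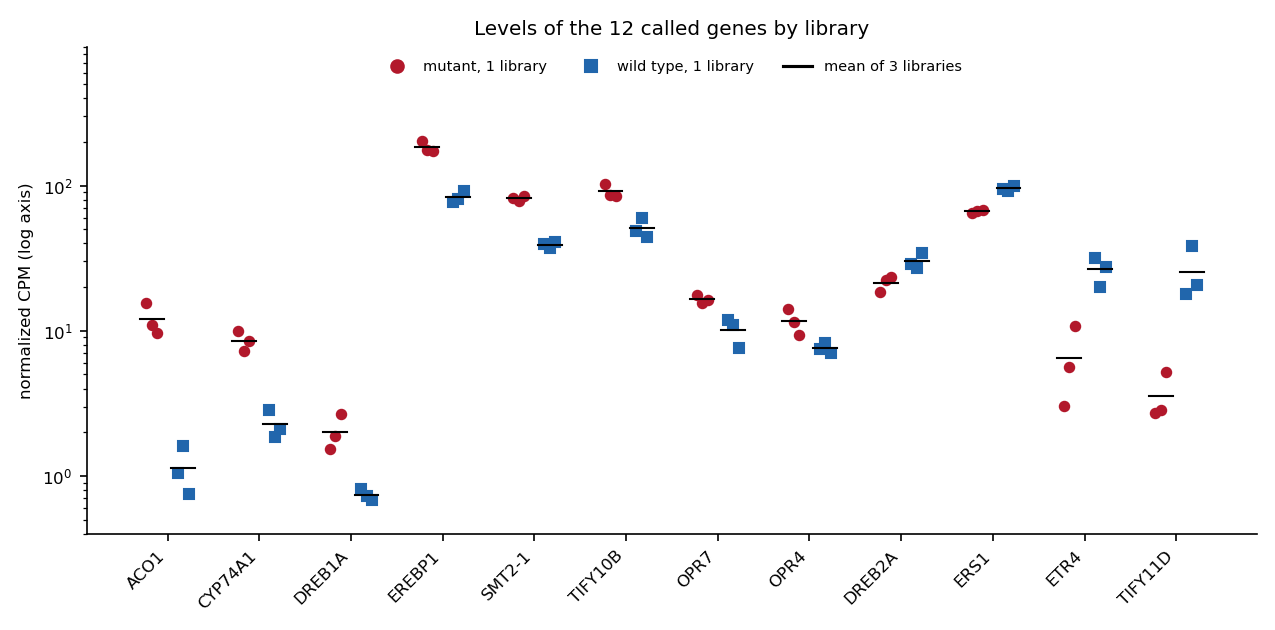
Normalized CPM (log axis) of the 12 called genes in each mutant library (circles) and each wild-type library (squares), with bars at the means of 3 libraries. ACO1 lies between 9.61 and 15.5 in the mutant and between 0.753 and 1.62 in wild type, and TIFY11D lies between 2.71 and 5.18 in the mutant and between 17.8 and 38.3 in wild type.

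The 12 calls differed in how far they held. For 7 genes (ACO1, EREBP1, CYP74A1, TIFY10B and SMT2-1, which rose, and ETR4 and TIFY11D, which fell) the direction and the call were kept under every alternative run, which included both kinds of total-count scaling, DESeq2, other filters, a stricter threshold and each library left out in turn. For the other 5 (DREB1A, OPR7 and OPR4, which rose, and ERS1 and DREB2A, which fell with TMM but were higher with total-count scaling) the call was lost in at least 1 alternative.

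Ethylene synthesis was represented by 1 synthase and 1 oxidase. ACO1, an ACC oxidase that carries out the last step of ethylene synthesis (OS09G0451400, chromosome 9, 16925457 to 16927046, positions as deposited, with the genome build not stated), measured 15.5, 10.9 and 9.61 normalized CPM in the mutant, against 1.06, 1.62 and 0.753 in wild type. The lowest mutant library stood far above the highest wild-type library. Means were 12 ± 3.1 normalized CPM in mutant and 1.14 ± 0.441 in wild-type grains (SD, n = 3 each), 10.6-fold higher in the mutant (a log2 fold change of 3.40 with SE 0.33, edgeR adjusted p = 4.6e-04). Wild-type values rest on 13, 20 and 11 counts, against 618, 412 and 282 in the mutant. Across all alternatives the log2 fold change lay between 3.15 and 4.67. The synthase, with symbol ACC1 (described as 1-aminocyclopropane-1-carboxylate synthase 1, the enzyme type that makes the precursor), was too low to be tested. It had 34, 5 and 11 counts in the mutant libraries and 5, 0 and 13 in the wild-type libraries, and the lines overlapped.

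The 4 receptors with a description did not move together. ETR4 fell, ERS1 fell relative to the typical gene but was higher with total-count scaling, and ETR2 and ETR3 did not pass the test. ETR4, a receptor of the subfamily with a degenerate histidine kinase domain (OS07G0259100, chromosome 7, 9005204 to 9008484), measured 3.01, 5.59 and 10.8 normalized CPM in the mutant, against 31.8, 20.1 and 27.6 in wild type. The lines did not overlap, and mutant library 3, which also had the largest storage protein share of the mutant libraries, was the nearest to wild type. The fall was 4.13-fold (log2 fold change -2.05, SE 0.42, edgeR adjusted p = 0.0088), and it was 6.27-fold without mutant library 3 (adjusted p = 6.9e-04). With total-count scaling it was still lower (log2 fold change -0.98, adjusted p = 0.022).

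ERS1, a receptor of the other subfamily (OS03G0701700, chromosome 3, 28169837 to 28174078), averaged 66.3 ± 1.64 normalized CPM in mutant and 95.6 ± 3.31 in wild-type grains (SD, n = 3 each). Its 3 mutant libraries (64.5, 67.1 and 67.5) were the most even of any called member, and all lay below those of wild type (95.4, 92.4 and 99). Its log2 fold change was -0.53 (SE 0.13, edgeR adjusted p = 0.018), but it was 0.68 with total-count scaling (adjusted p = 0.018) and 0.08 with total-count scaling without storage and seed allergen features (adjusted p = 0.66), so the direction of ERS1 depends on the scaling. With TMM the call was also lost on leaving out mutant library 2, with an adjusted p of 0.082, or either of wild-type libraries 1 and 3, with 0.066 for each. ETR2 measured 83.3, 61.5 and 46.7 normalized CPM in the mutant, against 50.4, 39.3 and 47.6 in wild type. The lines overlapped, because mutant library 3 was within the wild-type range (log2 fold change 0.48, SE 0.22, adjusted p = 0.13). Without mutant library 3 it passed (log2 fold change 0.63, edgeR adjusted p = 0.028), as it did with total-count scaling (1.75, adjusted p = 0.0017). ETR3, the least abundant of the described receptors, averaged 5.87 ± 1.45 normalized CPM in mutant and 3.15 ± 1.18 in wild-type grains. Its lines did not overlap (log2 fold change 0.90, edgeR adjusted p = 0.061). It passed as higher with the DESeq2 Wald test (adjusted p = 0.040), without mutant library 3 (0.038), without wild-type library 1 (0.039), with the replicate number as a block (0.039) and with total-count scaling (0.0021). It did not pass without mutant library 1 or 2 or wild-type library 2 or 3 (edgeR adjusted p = 0.13 to 0.16).

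The make-up of the 4 described receptors can be given free of any scaling between libraries. It is each gene's share of their summed FPKM (a level per transcript length and library total) in the same library. A further listed receptor locus carries no description and is not among the 4. These shares were computed after the fold changes had been seen and are given without a test. ERS1 made up the largest share in every library, with 62.6% ± 3.72 for mutant and 65% ± 3.89 for wild-type grains (SD, n = 3 each), with overlapping lines. ETR4 took 2.96%, 5.8% and 11.3% in the mutant, against 22.2%, 16.3% and 19.6% in wild type. ETR2 took 36.3%, 28.3% and 21.8% in the mutant, against 15.6%, 14.1% and 15% in wild type. ETR2 was thus the second of the 4 by level in every mutant library, while in wild type ETR4 stood above ETR2 in all 3 libraries. ETR3 stayed under 2.4% in all 6 libraries.

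**Figure D2:**
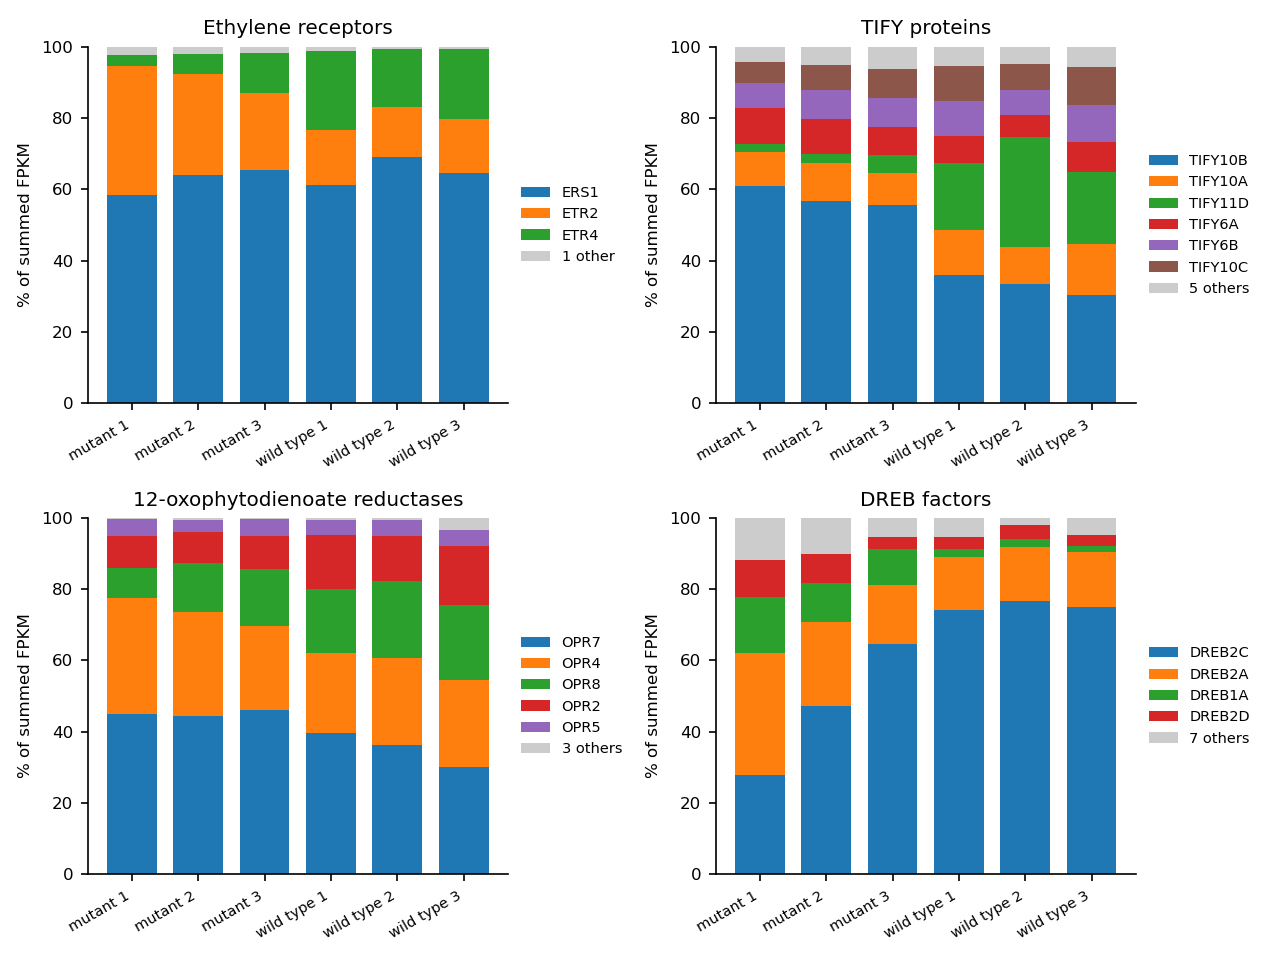
Share of the summed FPKM of each family's described members (percent, bars from 0) in mutant libraries 1 to 3 and wild-type libraries 1 to 3. Members under 4% in both lines are summed in grey; ETR4 among the receptors and TIFY11D among the TIFY genes take smaller shares in all mutant libraries, and TIFY10B takes 55.7% to 60.9% in the mutant and 30.3% to 35.9% in wild type.

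Downstream of the receptors, EIN2, the membrane protein that carries the signal onward, averaged 1.76 ± 0.398 normalized CPM in mutant and 2.37 ± 0.566 in wild-type grains (SD, n = 3 each). It did not pass, with overlapping lines (log2 fold change -0.43, SE 0.32, edgeR adjusted p = 0.34, and 0.80 with total-count scaling). A gene described as Enhanced ethylene response protein 5 (OS09G0386400, named after an Arabidopsis gene) measured 11.3, 11.5 and 11.2 normalized CPM in the mutant, against 8.69, 9.08 and 7.87 in wild type. The lines did not overlap, but the difference missed the threshold (log2 fold change 0.41, SE 0.15, adjusted p = 0.067). It passed with no low-count filter (adjusted p = 0.034), with a mean of at least 5 CPM (0.042) and with total-count scaling (7.4e-04). It did not pass in edgeR whichever library was left out (adjusted p = 0.096 to 0.19) or with the replicate number as a block (0.13). The DESeq2 Wald test did not call it either (adjusted p = 0.11).

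Among ethylene-responsive factors, EREBP1 (described as ethylene-responsive transcription factor 1, OS02G0782700, chromosome 2, 33199818 to 33202681) was the most abundant of all 52 genes, with a mean of 74 FPKM over the 6 libraries. In wild type alone TIFY10B had the higher mean, with 25.4 FPKM against 23.9 for EREBP1. EREBP1 measured 203, 176 and 173 normalized CPM in the mutant, against 77.4, 80.7 and 91.7 in wild type. Means were 184 ± 16.3 normalized CPM in mutant and 83.3 ± 7.49 in wild-type grains (SD, n = 3 each), 2.21-fold higher in the mutant (a log2 fold change of 1.14 with SE 0.16, edgeR adjusted p = 0.002). Its log2 fold change kept to 1.07 to 1.21 with each library left out in turn. The other 2 genes of this class were nearly silent. ABI4, a factor known from abscisic acid responses, had 1 to 6 counts in each library. ERF061 had 4, 5 and 2 counts in the mutant and none in wild type, too few to test.

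The 11 DREB genes went both ways. DREB1A rose, DREB2A fell (though it was higher with total-count scaling), 4 did not pass and 5 were not tested. Their median log2 fold change was -0.32, and it was 0.88 with total-count scaling. DREB1A, a factor best known for cold responses (OS09G0522200, chromosome 9, 20403413 to 20404332), measured 1.53, 1.88 and 2.66 normalized CPM in the mutant, against 0.812, 0.729 and 0.684 in wild type. The lines did not overlap, and the wild-type values rest on 9 or 10 counts per library. It was 2.71-fold higher in the mutant (a log2 fold change of 1.44 with SE 0.36, edgeR adjusted p = 0.02), and it did not pass without mutant library 2 or 3 or any 1 of the wild-type libraries (adjusted p = 0.054 to 0.067). DREB1H, whose annotated position lies 3215 bases before that of DREB1A, had at most 9 counts in a library.

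DREB2C, the most abundant DREB gene at a mean of 16.5 FPKM over the 6 libraries, showed the widest spread between mutant libraries of the tested DREB genes. It measured 3.39, 10.2 and 20.9 normalized CPM in the mutant, against 32.9, 31.3 and 37.8 in wild type. All mutant libraries lay below wild type, and the coefficient of variation was 76.9% in the mutant and 9.94% in wild type. The difference just missed the threshold in edgeR with all libraries (log2 fold change -1.57, SE 0.53, adjusted p = 0.054) and passed with the DESeq2 Wald test (-1.58, adjusted p = 0.0076). It passed without mutant library 1 (-1.13, adjusted p = 0.018) and without mutant library 3 (-2.35, adjusted p = 0.0036). It did not pass without mutant library 2 (edgeR adjusted p = 0.15) or any 1 of the wild-type libraries (0.11 to 0.13). With total-count scaling it did not pass either (-0.54, adjusted p = 0.22).

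DREB2A, a factor known from drought and salt responses, averaged 21.5 ± 2.78 normalized CPM in mutant and 30.1 ± 3.7 in wild-type grains (SD, n = 3 each). The fall was 1.4-fold (log2 fold change -0.49, SE 0.16, edgeR adjusted p = 0.046), and the value was 0.70 with total-count scaling (adjusted p = 0.015), so its direction depends on the scaling. The call was lost without mutant library 1 or 2 or any 1 of the wild-type libraries (adjusted p = 0.06 to 0.15). DREB1G had 16, 22 and 22 counts in the mutant and 3, 0 and 0 in wild type, which did not pass (adjusted p = 0.053). It passed as higher with the DESeq2 Wald test (adjusted p = 0.042) and, in edgeR, without wild-type library 1 (0.029). The same held with total-count scaling (0.0038) and with total-count scaling without storage and seed allergen features (0.016). With TMM, DREB1G did not pass when any other library was left out (edgeR adjusted p = 0.059 to 0.15). As shares of the summed FPKM of the 11 DREB genes, DREB2C took 27.9%, 47.1% and 64.5% in the mutant, against 74.3%, 76.8% and 74.9% in wild type. DREB1A took 12.3% ± 3.01 in the mutant and 2.08% ± 0.329 in wild type (SD, n = 3 each). DREB2A took 34.3%, 23.6% and 16.6% in the mutant, against 14.9%, 15.1% and 15.4% in wild type. Both DREB1A and DREB2A, the second of which was called lower in normalized CPM, took a larger share in all 3 mutant libraries, and DREB2C took a smaller one. The shares of a library are parts of the same sum, so a smaller share of DREB2C leaves larger shares for the others. A larger share is thus not by itself a rise.

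**Figure D3:**
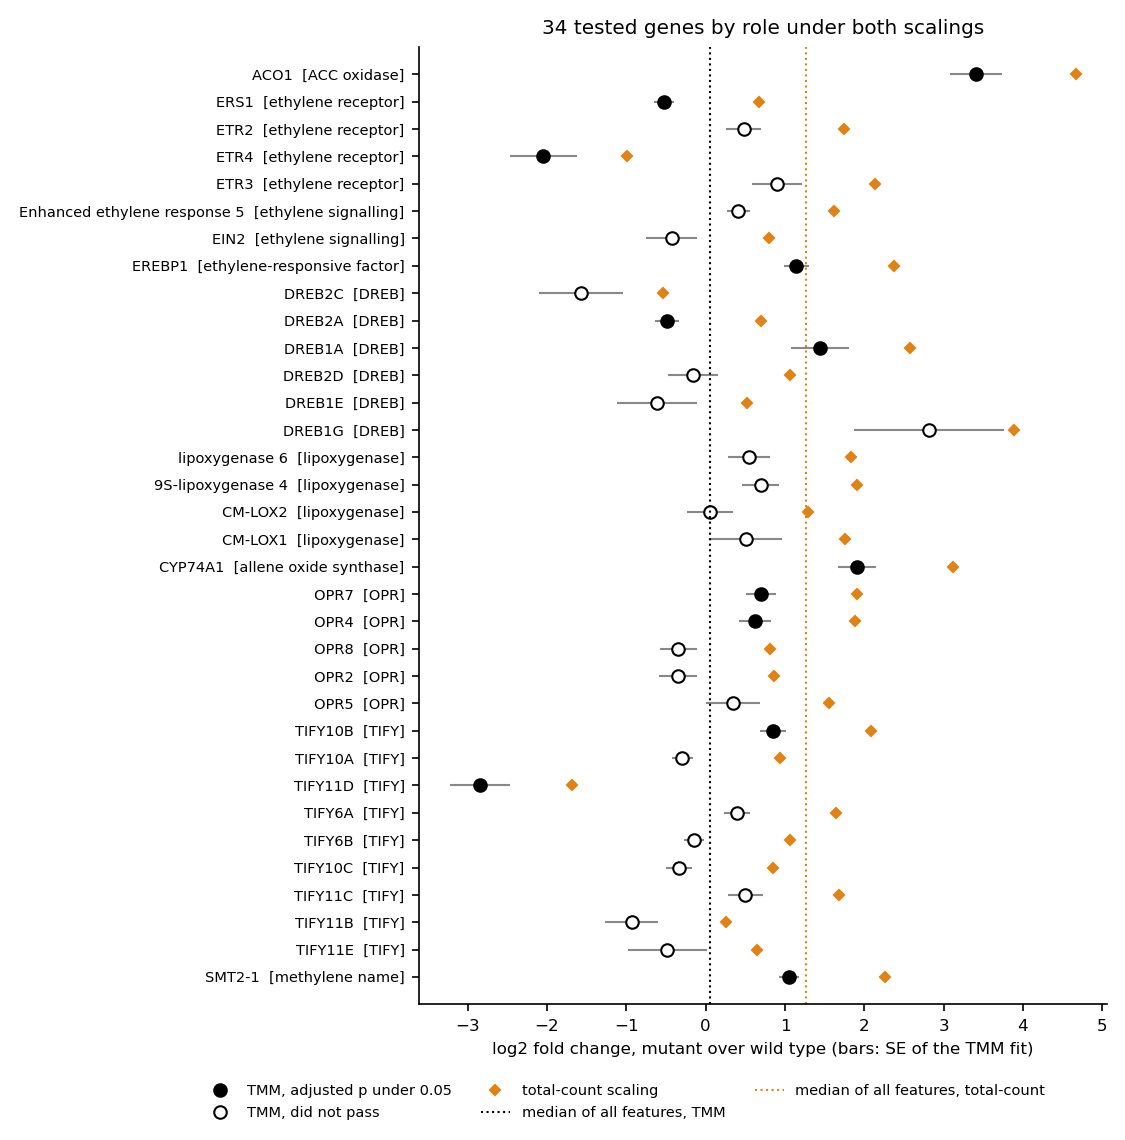
Log2 fold change of mutant over wild type with its SE for the 34 tested genes, ordered by role, filled where the adjusted p was under 0.05 (TMM), with the value under total-count scaling as diamonds. Dotted lines mark the medians of all tested features at 0.06 and 1.27. ETR4, TIFY11D and DREB2C are negative under both scalings, but DREB2C passed under neither.

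On the jasmonate side, lipoxygenases, which oxidise fatty acids at the start of the pathway, gave no call in edgeR with TMM. Of 6 genes 4 were tested and none passed (median log2 fold change 0.53 with TMM and 1.79 with total-count scaling, where all 4 were called higher). The gene described as probable lipoxygenase 6 measured 31.1, 28.8 and 14.9 normalized CPM in the mutant, against 18.3, 15.2 and 17.7 in wild type. Mutant library 3 lay below the whole wild-type range, and the other 2 lay above it (log2 fold change 0.55, SE 0.26, edgeR adjusted p = 0.15, and 0.79 with adjusted p = 0.0049 without mutant library 3). The gene described as probable linoleate 9S-lipoxygenase 4, of a class that makes 9-hydroperoxides and not jasmonate precursors, averaged 23.9 ± 6.72 normalized CPM in mutant and 14.8 ± 3.06 in wild-type grains (log2 fold change 0.70, SE 0.23, adjusted p = 0.054). It passed with the DESeq2 Wald test (0.67, adjusted p = 0.045), with a mean of at least 5 CPM (0.74, adjusted p = 0.042), without mutant library 1 (0.83, adjusted p = 0.028) and without mutant library 3 (0.76, adjusted p = 0.044). It did not pass without mutant library 2 (edgeR adjusted p = 0.19) or any 1 of the wild-type libraries (0.055 to 0.16). The chloroplast enzymes CM-LOX1 and CM-LOX2, neighbours on chromosome 8, did not pass (log2 fold change 0.51 and 0.05, adjusted p = 0.42 and 0.91). No lipoxygenase took a share of the family's summed FPKM that was separate between the lines.

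Allene oxide synthase makes the unstable epoxide from which the jasmonate ring is closed. CYP74A1 (allene oxide synthase 1, chloroplastic, OS03G0767000, chromosome 3, 31764991 to 31766985) measured 9.97, 7.23 and 8.45 normalized CPM in the mutant, against 2.84, 1.86 and 2.12 in wild type. Means were 8.55 ± 1.37 normalized CPM in mutant and 2.28 ± 0.507 in wild-type grains (SD, n = 3 each), 3.76-fold higher in the mutant (a log2 fold change of 1.91 with SE 0.24, edgeR adjusted p = 0.0013). Its position overlaps another feature, OS03G0766900, which had 392, 338 and 238 counts in the mutant and 61, 71 and 74 in wild type. CYP74A1 itself had 397, 273 and 248 counts in the mutant and 35, 23 and 31 in wild type. Reads of the pair cannot be told apart here, so the value of CYP74A1 is uncertain.

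The other 3 allene oxide synthase genes were too low to be tested. CYP74A3 had 4, 1 and 3 counts in the mutant and 11, 8 and 66 in wild type. The lines did not overlap, and wild-type library 3 held most of the counts. It had enough counts for a test when scaled to total counts without storage and seed allergen features, where it was called lower (edgeR adjusted p = 0.00735, log2 fold change -4.05). CYP74A2 and CYP74A4 had at most 11 counts in a library. Of the summed FPKM of the 4 genes, CYP74A1 took 98.2% ± 0.894 in the mutant and 73.3%, 68% and 28.5% in wild type. In wild-type library 3 CYP74A3 was the leading gene of the family, at 70.5%.

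The 12-oxophytodienoate reductases reduce a ring double bond, for some members in the jasmonate precursor. Of 8 genes, 2 rose, 3 did not pass and 3 were not tested. OPR7, the rice reductase known to act in jasmonate synthesis (OS08G0459600, chromosome 8, 22547184 to 22550675), measured 17.5, 15.5 and 16.4 normalized CPM in the mutant, against 11.9, 11 and 7.66 in wild type. All mutant libraries lay above all wild-type libraries. It was 1.62-fold higher in the mutant (a log2 fold change of 0.70 with SE 0.19, edgeR adjusted p = 0.026). OPR4 (chromosome 6, 5894911 to 5896347) lies in a row of at least 4 reductase genes, of which 4 carry a description. It averaged 11.6 ± 2.36 normalized CPM in mutant and 7.57 ± 0.65 in wild-type grains (SD, n = 3 each), 1.54-fold higher (edgeR adjusted p = 0.044). Both calls were close to the threshold. The OPR7 call was lost when mutant library 2 (adjusted p = 0.069), wild-type library 2 (0.053) or wild-type library 3 (0.065) was left out. OPR4 did not pass without mutant library 1 or 2 or any 1 of the wild-type libraries (0.071 to 0.13).

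Its neighbours did not share the call. OPR5 (log2 fold change 0.35, edgeR adjusted p = 0.48) lies 8770 bases before OPR4, and OPR2 (-0.35, adjusted p = 0.305) lies 16710 bases after it. OPR6, at the start of the row, had 7 counts in all. These genes are alike in kind, and reads may have been split between them, which was not measured. Of the summed FPKM of the 8 described reductases, OPR7 took 45.1% ± 0.852 in the mutant and 35.3% ± 4.89 in wild type (SD, n = 3 each), without overlap. A further listed reductase locus carries no description and is not in this sum. OPR8 took 12.6% ± 3.89 in the mutant and 20.2% ± 1.95 in wild type, and OPR2 took 9.05% ± 0.429 in the mutant and 14.8% ± 2.1 in wild type, both without overlap.

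The 11 TIFY genes code for repressors or relatives of repressors that jasmonate removes, and the 2 that passed went opposite ways. TIFY10B rose, TIFY11D fell, 7 did not pass and 2 were not tested, with a median log2 fold change of -0.29 (0.94 with total-count scaling). TIFY11D (OS10G0392400, chromosome 10, 13069770 to 13070894) measured 2.71, 2.83 and 5.18 normalized CPM in the mutant, against 17.8, 38.3 and 20.5 in wild type. Every mutant library lay below every wild-type library. The fall was 7.18-fold (log2 fold change -2.84, SE 0.37, edgeR adjusted p = 0.0015), the largest fall of any tested member, and it stayed between -3.23 and -1.48 under all alternatives. TIFY11E, 37764 bases away on chromosome 10, averaged 0.52 ± 0.236 normalized CPM in mutant and 0.723 ± 0.222 in wild-type grains (log2 fold change -0.48, SE 0.50, adjusted p = 0.49).

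TIFY10B (OS07G0615200, chromosome 7, 25348060 to 25350242) measured 102, 86.5 and 85.1 normalized CPM in the mutant, against 49, 59.3 and 43.9 in wild type. The lines did not overlap. It was 1.8-fold higher in the mutant (a log2 fold change of 0.85 with SE 0.16, edgeR adjusted p = 0.0071) and was the most abundant TIFY gene, with a mean of 66.4 FPKM over the 6 libraries. TIFY10A, the second by FPKM, averaged 28.6 ± 2.37 normalized CPM in mutant and 35 ± 3.19 in wild-type grains (SD, n = 3 each). That difference did not pass (log2 fold change -0.29, SE 0.13, adjusted p = 0.13), and the value was 0.94 with total-count scaling.

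The other tested TIFY genes lay between log2 fold changes of -0.93 (TIFY11B) and 0.50 (TIFY11C), which are 10826 bases apart on chromosome 3. TIFY11B averaged 1.74 ± 0.54 normalized CPM in mutant and 3.33 ± 0.641 in wild-type grains (adjusted p = 0.064), and TIFY11C averaged 4.67 ± 0.702 in mutant and 3.29 ± 0.331 in wild-type grains (adjusted p = 0.13). TIFY11B passed as lower with the DESeq2 Wald test (adjusted p = 0.035) and without mutant library 3 (0.041), but turned to 0.25 on the log2 scale when scaled to total counts. As shares of the summed FPKM of the 11 TIFY genes, TIFY10B took 60.9%, 56.7% and 55.7% in the mutant, against 35.9%, 33.6% and 30.3% in wild type. TIFY11D took 2.32%, 2.66% and 4.84% in the mutant, against 18.7%, 31% and 20.2% in wild type. In wild type TIFY11D was the second TIFY gene by level in every library, while TIFY10B, TIFY10A, TIFY6A, TIFY6B and TIFY10C all stood above it in every mutant library.

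A list of 36 loci for both pathways held 10 of the members, 19 loci that carry no symbol or description in the table and are not used here, and 7 annotated genes outside the members. All 7 were tested, and 2 rose, 1 fell and 4 did not pass, beside 15.8% of all tested features higher and 15.4% lower. The genes for the step that joins jasmonate to an amino acid were called in opposite directions with TMM, while with total-count scaling GH3.3 was called higher and GH3.5 was not called. GH3.5, described as jasmonic acid-amido synthetase JAR1, measured 38.1, 45 and 37.8 normalized CPM in the mutant, against 90, 94.8 and 75.3 in wild type. It fell by 1.10 on the log2 scale (SE 0.15, edgeR adjusted p = 0.0019), which was 0.11 with total-count scaling (adjusted p = 0.68). Scaled to total counts without storage and seed allergen features, it was still called lower (log2 fold change -0.50, adjusted p = 0.044). GH3.3, described as JAR2, measured 20.1, 15.6 and 14.1 normalized CPM in the mutant, against 11, 11 and 10.3 in wild type. Its lines did not overlap, and it rose (log2 fold change 0.62, SE 0.17, adjusted p = 0.028). The GH3.3 call was lost without mutant library 1 or 2 or any 1 of the wild-type libraries (adjusted p = 0.067 to 0.089).

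MYC2, the transcription factor that TIFY repressors hold back, measured 42.5, 37.6 and 32.1 normalized CPM in the mutant, against 24.9, 22.8 and 24.3 in wild type. It rose by 0.64 on the log2 scale (SE 0.14, edgeR adjusted p = 0.012), and missed the threshold without mutant library 2 (adjusted p = 0.051). The receptor genes COI1A, COI1B and COI2 did not pass (log2 fold change 0.11, -0.31 and 0.17, adjusted p = 0.74, 0.27 and 0.41), and a Ninja-family gene, of a family with adaptors for TIFY repressors in Arabidopsis, had a log2 fold change of -0.00402 (SE 0.13, adjusted p = 0.98). With total-count scaling COI1A, COI1B, COI2 and the Ninja-family gene were each called higher (log2 fold change 0.95 to 1.40), close to the shift of all features.

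The gene with methylene in its name also rose. SMT2-1 (OS03G0136200), a methyltransferase of plant sterol synthesis, averaged 81.6 ± 3.01 normalized CPM in mutant and 39.3 ± 1.72 in wild-type grains (SD, n = 3 each), 2.08-fold higher in the mutant (a log2 fold change of 1.06, SE 0.13, edgeR adjusted p = 0.001). Its lines were among the tightest and did not overlap.

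**Figure D4:**
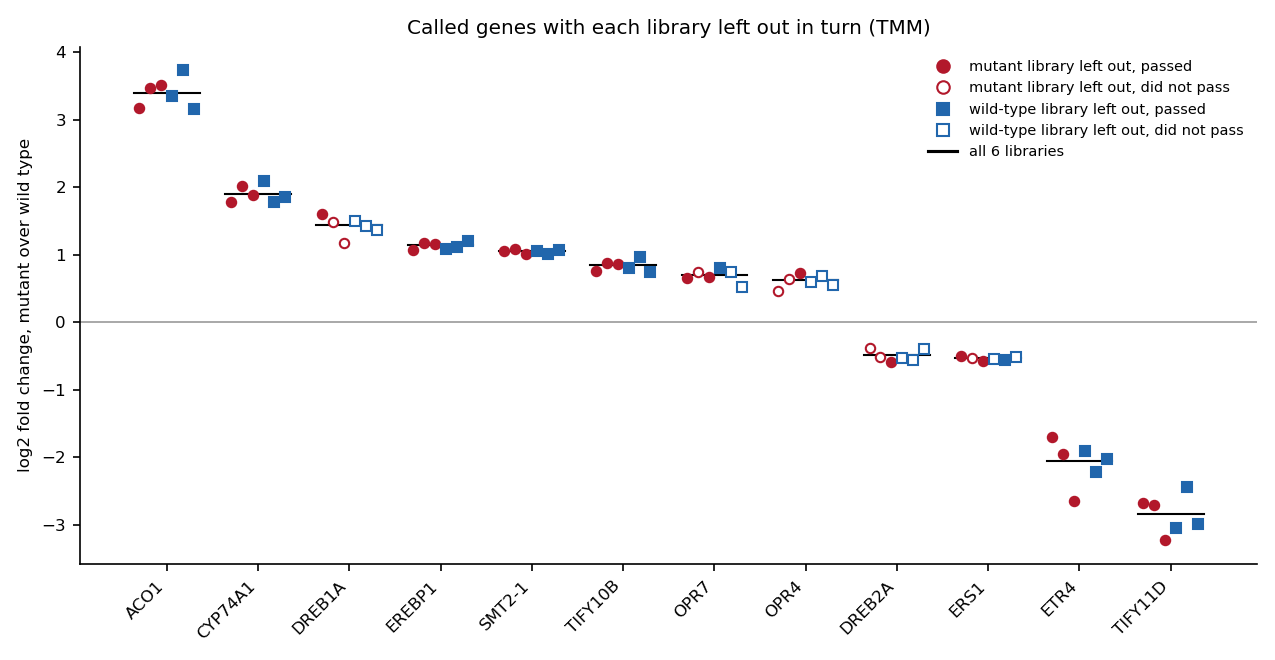
Log2 fold change of the 12 called genes with each of the 6 libraries left out in turn (circles for mutant, squares for wild-type libraries), filled where the gene still passed, with lines at the value from all libraries. ACO1, CYP74A1, EREBP1, SMT2-1, TIFY10B, ETR4 and TIFY11D pass in every case; DREB1A, OPR4, DREB2A, ERS1 and OPR7 do not.

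The mutant libraries differed among themselves. For 21 of the 34 tested genes mutant library 3 was the mutant library nearest to the wild-type mean, against 6 for library 1 and 7 for library 2. The same held for 47.6% of all tested features. Among the 4 genes called lower with TMM (ETR4, ERS1, DREB2A and TIFY11D) mutant library 3 was the nearest in all 4, and among the 8 rises in 4. The margin over library 2 was small for ERS1 (67.5 and 67.1 normalized CPM) and DREB2A (23.6 and 22.5). The matching shares among all called features were not computed. Leaving out mutant library 1 gave 8 rises and 5 falls among 36 tested members, beside 28% of all tested features called either way. Leaving out mutant library 2 gave 5 and 3 among 37, beside 17.2%, and mutant library 3 gave 13 and 7 among 37, beside 35%. Leaving out wild-type library 1 gave 8 and 2 among 37, beside 18.9%. Wild-type library 2 gave 5 and 4 among 38, beside 22.6%, and wild-type library 3 gave 5 and 2 among 35, beside 20.7%.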

How the data were processed

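The authors deposited raw read counts per feature and FPKM for 3 mutant and 3 wild-type libraries, per the file headers. Per the submitters' processing notes, Bowtie 0.12.2 was used. Which counter, genome build, annotation and strand setting applied is not stated in the labels or headers, so overlapping genes are uncertain. Coordinates are those of the deposited table. In each of 18936 features with 10 or more counts per library, count and deposited FPKM gave the same length in all libraries within 0.1%.

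Mutant was compared with wild type on the deposited counts in edgeR 4.0.16 (R 4.3.3; filterByExpr, TMM, glmQLFTest, line as the only term), with Benjamini-Hochberg adjustment over 22937 features and calls under 0.05. SE is the absolute log2 fold change over the square root of F. Alternatives used DESeq2 1.42.0, limma 3.58.1 on log2(FPKM + 1) and log2(FPKM + 0.1) with a mean FPKM of at least 1, other scalings and filters, and left out each library. Counts simulated with 4-fold changes were used to test the fit. Named genes are all called members and the 2 highest by mean FPKM of each role; further members were described after their values were seen. Members and lists were chosen with earlier results of these data known. A gene that the words also match is not reported here. No sequences are shown.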

Additional observations from a re-analysis of the deposited data

How the results depend on the processing

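Scaling moved the counts most. Over all features 7148 were called with TMM, 17344 with total-count scaling, 11710 with total-count scaling without storage and seed allergen features, 15444 and 15483 with limma on log2(FPKM + 1) and log2(FPKM + 0.1), 3364 at an adjusted p under 0.01 and 4012 to 8328 with 1 library left out. Features tested numbered 22937 with TMM, with total-count scaling and at the stricter threshold. They numbered 23024 without storage and seed allergen features, 20527 in each limma fit and 23258 to 24095 with 1 library left out. Among the members the calls were, in the same order, 12 of 34 tested, 28 of 34, 20 of 36, 25 of 28, 25 of 28, 7 of 34 and 7 to 20 of 35 to 38. Among the 7 listed genes outside the members they were 3, 6, 5, 6, 6, 1 and 1 to 3. By role, the calls over these alternatives and with DESeq2, without the low-count filter or with a minimum mean of 5 CPM were 1 in each for the ACC oxidase, EREBP1's class and SMT2-1, 1 to 4 for receptors, 0 or 1 for ethylene signalling, 0 to 4 for DREB genes, 0 to 4 for lipoxygenases, 1 or 2 for allene oxide synthases, 0 to 5 for 12-oxophytodienoate reductases and 2 to 7 for TIFY genes. The cause was not tested beyond the scaling itself.

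Among the 26 named genes, directions that turned under total-count scaling, total-count scaling without storage and seed allergen features, and limma on log2(FPKM + 1) and log2(FPKM + 0.1) were, on the log2 scale, those of ERS1 (0.68, 0.0776, 0.63 and 0.65), DREB2A (0.70, 0.11, 0.58 and 0.68), TIFY10A (0.94, 0.33, 0.83 and 0.88), COI1B (0.95, 0.32, 0.83 and 0.85) and the Ninja-family gene (1.22, 0.61, 1.04 and 1.16). EIN2 turned to 0.80 and 0.19 under the first 2, and GH3.5 to 0.11, 0.0777 and 0.0795 under the first and the 2 limma fits. The Ninja-family gene, at -0.00402, also turned with no low-count filter (0.14) and with a mean of at least 5 CPM (0.0396), and lay between -0.0778 and 0.02 with 1 library left out; COI1A lay between -0.14 and 0.26. Of the other tested members 8, 6, 6 and 6 also turned under these 4 settings, among them OPR8, OPR2, TIFY6B and TIFY10C in each. DESeq2 size factors in edgeR kept the direction and call of all 26 named genes; the DESeq2 Wald test kept 24 and added DREB2C and 9S-lipoxygenase 4 as calls.

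Libraries that share a replicate number did not pair: the correlations of their deviations were 0.07, -0.04 and -0.03. With the replicate number as a block in edgeR, 6048 of 22937 features and 11 of 34 members were called. In that fit ERS1 (adjusted p = 0.058), DREB2A (0.062) and OPR4 (0.066) no longer passed, and DREB2C (0.024) and ETR3 (0.039) did. Depth limits the 18 members with too few counts for the test, of which CYP74A3 was lower with total-count scaling without storage and seed allergen features (adjusted p = 0.00735).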
